A study of Mus musculus with 3 samples.

Results

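The genes described here carry peptide presentation by major histocompatibility complex (MHC) molecules. The set has 10 members, picked by symbol from the 31053 genes of the expression matrices, and all 10 were found there. Cd74, H2-Aa, H2-Ab1, H2-Eb1, H2-DMa and Ciita belong to the class II route, and H2-K1, H2-D1, B2m and Tap1 to the class I route. Mouse dorsal root ganglia (DRG) were profiled by single-cell RNA-seq, and its 3 libraries came from naïve mice, from mice at day 7 after spared nerve injury and from mice at day 14. All animals were male C57BL/6J mice of 13 weeks. Each library pooled 8 lumbar ganglia (L3 and L4 of both sides) from 2 mice, and the injured mice had been operated on both hindlegs, whereas the naïve mice were untreated. The ganglia came from perfused animals and were dissociated with collagenase and dispase, strained, and captured as droplets with a 3′ chemistry that counts unique molecular identifiers (UMIs). With 1 library per condition there is no spread between replicates and no test between conditions. Every interval given below is a 95% exact interval that covers counting error only.

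MHC class II is a pair of an alpha and a beta chain on the surface of antigen-presenting cells that shows peptides from the endosomal route to CD4 T cells. The invariant chain Cd74 fills the groove of newly made class II molecules, and H2-DM (H2-DMa with H2-DMb1) then exchanges its remnant for peptides. C57BL/6 mice carry I-A, made of H2-Aa and H2-Ab1, and lack a functional I-E alpha gene, so the H2-Eb1 transcript has no alpha partner. Ciita is the coactivator that switches on the class II genes. Class I heavy chains (H2-K1 and H2-D1) pair with the light chain B2m in nearly every cell and show cytosolic peptides, pumped into the endoplasmic reticulum by Tap1 with Tap2, to CD8 T cells. Interferons raise the class I genes and, through Ciita, the class II genes.

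The class II genes H2-Aa, H2-Ab1, H2-Eb1 and H2-DMa lie in the MHC region of chromosome 17, on GRCm38 between chr17:34119541-34139101 (H2-DMa) and chr17:34305867-34316674 (H2-Eb1). H2-Aa is at chr17:34282744-34287823 and H2-Ab1 at chr17:34257689-34269419. Tap1 (chr17:34187553-34197225), H2-K1 (chr17:33996017-34000347) and H2-D1 (chr17:35262730-35267499) are in the same region. Cd74 lies outside it, Ciita is at chr16:10480059-10528418 and B2m is at chr2:122147686-122153083. H2-DMa overlaps Brd2 on the opposite strand, and H2-Eb1, Ciita, B2m and Tap1 overlap an opposite-strand gene each (Gm20513, Dexi, Patl2 and Psmb9), while whether the counting used strand is not given in the sources used here. The class I heavy chains are similar in sequence to each other and to the H2-Q genes, and less so to the H2-T genes. Reads can be split among such genes, so the level of each heavy chain is uncertain.

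The short stretches before the start sites are shown because the class II genes moved together in the results. Promoter entries from RefSeq (GRCm38.p6) matched 7 of the 10 members, and Cd74, H2-Ab1 and Ciita had none. Letters were searched on both strands of the 250 bases before each start. Class II promoters are known for an X box (searched as AACNGATG), an X2 box (TGACGTCA) and a Y box (ATTGG), and class I promoters for a kB site (GGGGATTCC) and an interferon-stimulated response element (GAAGTGAAA, or the general core GAAANNGAA), and no matches in the stretches shown overlapped each other. Of 32851 promoters, 33.8% held the Y letters, 1.98% the X letters, 1.55% the X2 letters, 7.13% the general core, 0.402% the class I response element and 0.213% the kB letters. In the 170 bases before the start of 4 members below, capitals mark these letters on either strand. H2-Aa (chr17:34287824-34287993, minus strand) held X2 and Y, and H2-Eb1 (chr17:34305697-34305866, plus strand) held X and a pair of Y matches.
H2-Aa: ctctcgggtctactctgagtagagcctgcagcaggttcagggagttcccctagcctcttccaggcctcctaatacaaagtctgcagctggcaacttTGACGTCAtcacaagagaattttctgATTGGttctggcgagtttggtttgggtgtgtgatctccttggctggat
H2-Eb1: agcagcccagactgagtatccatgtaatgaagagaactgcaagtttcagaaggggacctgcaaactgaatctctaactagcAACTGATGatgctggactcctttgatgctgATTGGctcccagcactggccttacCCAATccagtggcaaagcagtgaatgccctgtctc
H2-K1 (the first of its entries, chr17:34000348-34000517, minus strand) held the kB site, the class I response element and Y in a row, and B2m (chr2:122147517-122147686, plus strand) held the general core and Y.
H2-K1: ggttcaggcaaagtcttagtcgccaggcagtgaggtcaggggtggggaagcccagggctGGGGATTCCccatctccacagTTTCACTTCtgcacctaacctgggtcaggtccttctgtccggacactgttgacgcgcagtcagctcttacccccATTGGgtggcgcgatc
B2m: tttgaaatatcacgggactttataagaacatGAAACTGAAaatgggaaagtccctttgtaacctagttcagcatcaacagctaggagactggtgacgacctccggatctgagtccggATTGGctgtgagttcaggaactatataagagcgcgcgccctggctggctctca
H2-D1 held the kB site, the class I response element and Y as H2-K1 did, whereas Tap1 held Y only. Of the H2-DMa entries one (chr17:34122582-34122831) held no match and the other (chr17:34125268-34125517) Y only. Both lie inside the gene span given above, and stretches before any other start of H2-DMa were not searched. H2-DMb1, the gene of its partner chain, held an X match (AACTGATG) and Y, and a comparison with H2-DMa covers these entries only. A match is a description of letters and no evidence of binding.

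Cells were assigned to 12 classes by marker genes fixed without the members, and "like" in a class name marks this. Barcodes with 500 or more genes and no more than 20% of their UMIs from mitochondrial genes entered, which left 3123 naïve, 2650 day 7 and 3799 day 14 cells after removal of 90 predicted doublets. Of these cells, 722 fell in no class. The median depth of all kept cells was 3059, 3972 and 4174 UMIs. Only 9 of 11928 barcode sequences occurred in more than 1 library. The macrophage-like class had 70, 208 and 251 cells in the naïve, day 7 and day 14 libraries, in which Csf1r was found in 94.3% of cells against 2.07% of all others and C1qa in 98.1% against 2.17%. Satellite glial cells (SGCs, the glia that wrap neuronal cell bodies) numbered 611, 370 and 492, and myelinating Schwann-like cells 1361, 1139 and 1648. Dendritic-like cells (5, 3 and 21) and B-like cells (11, 4 and 18) were few, so their levels rest on a handful of cells. Levels are UMIs of a gene per 1000000 UMIs of the class (CPM) and are compared between classes for the same gene, not between genes. Libraries differed in depth, and each share of cells with a UMI moves with it.

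**Figure D1:**
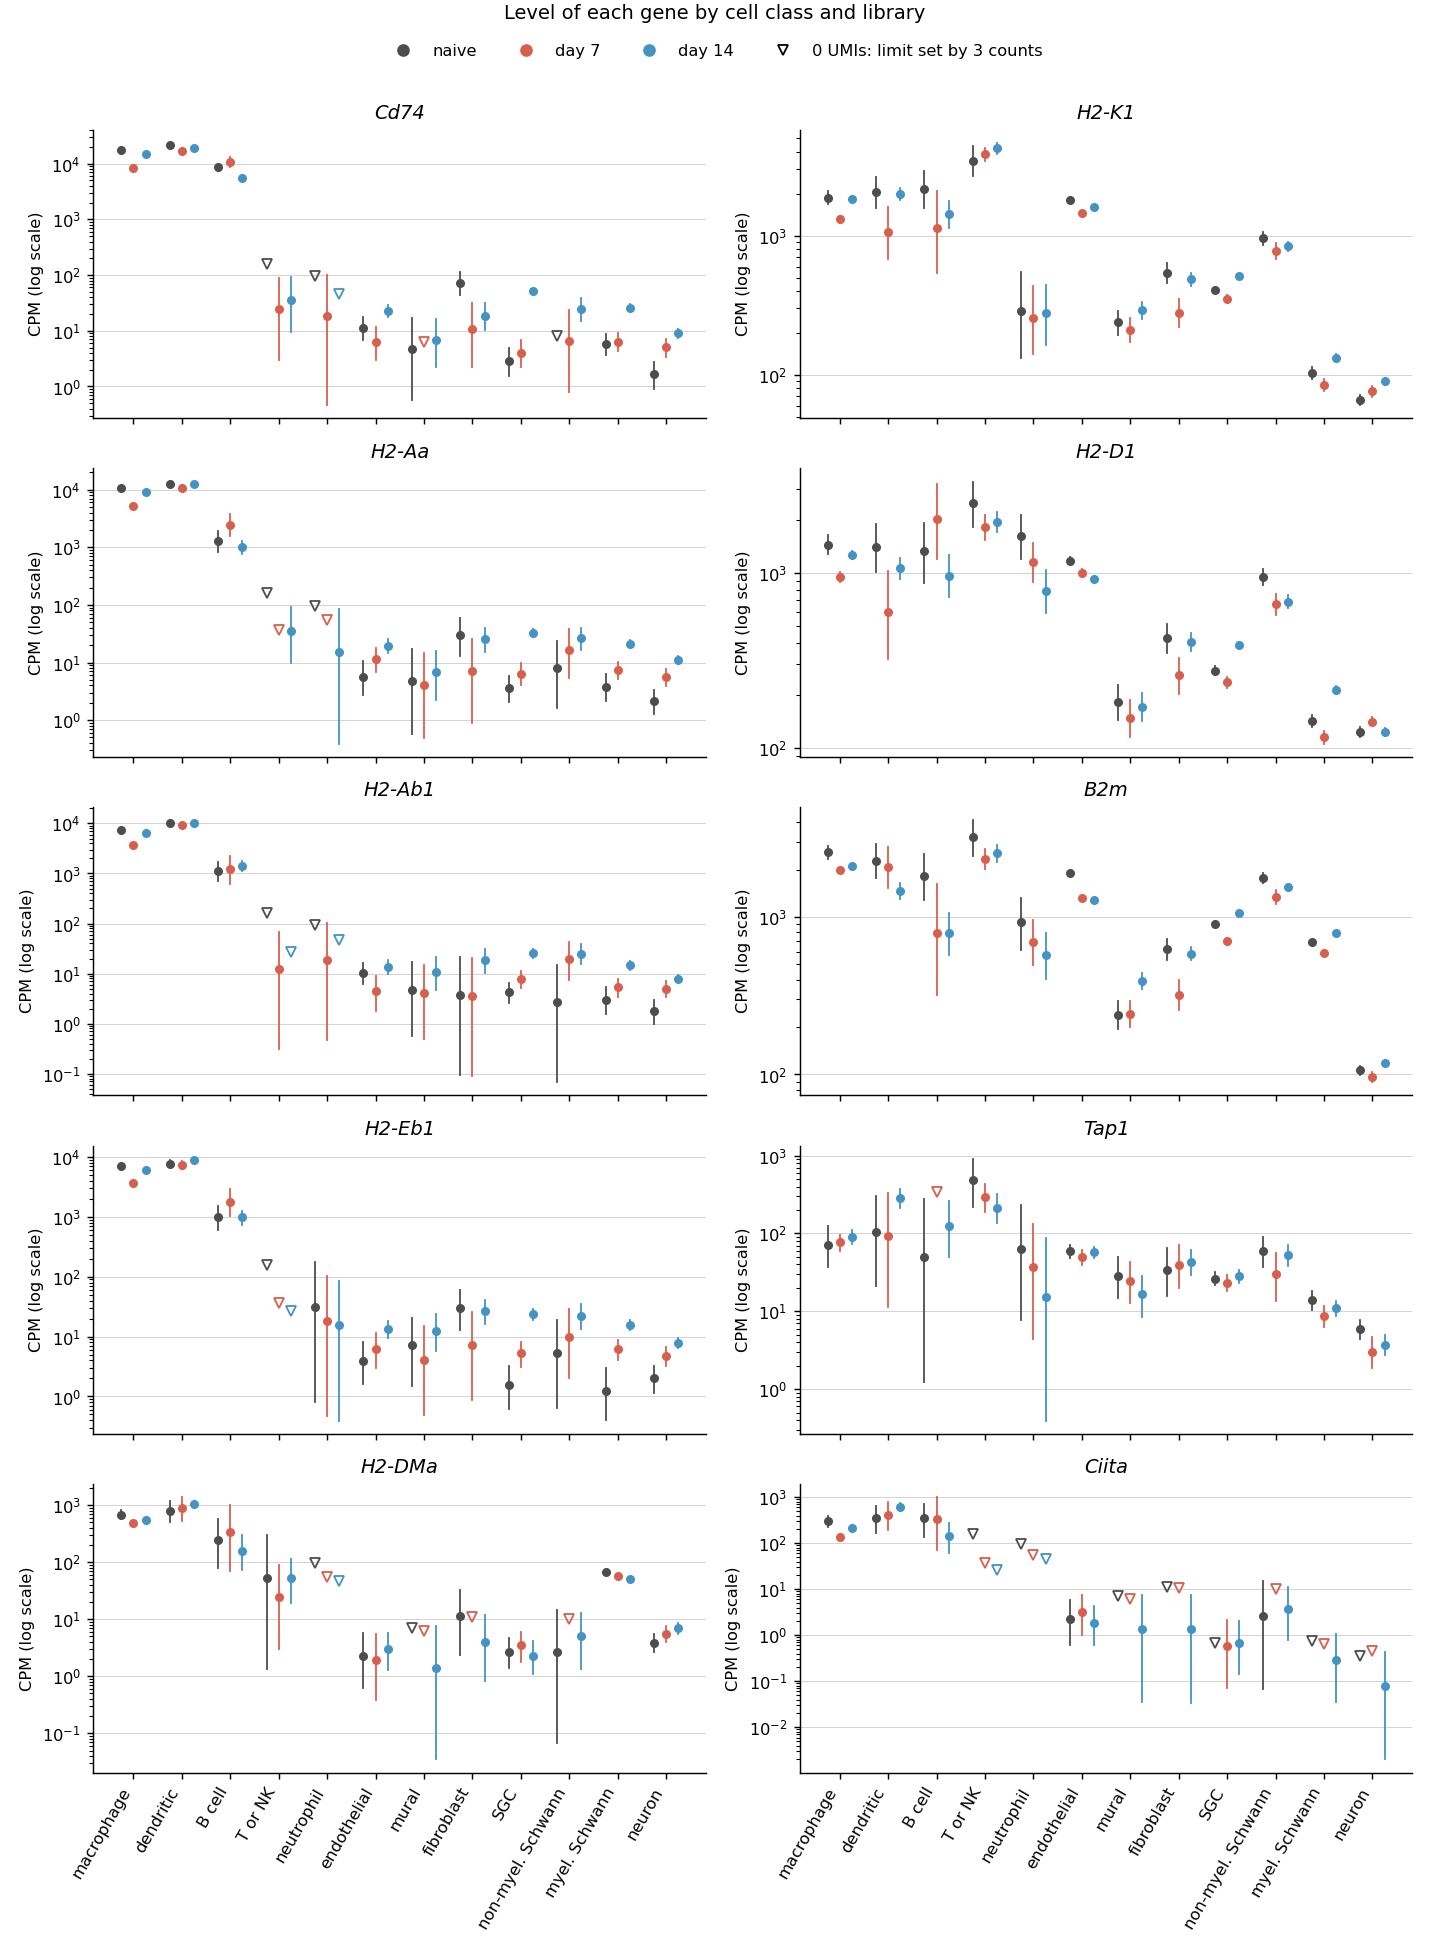
Level of each of the 10 genes in 12 marker-gated cell classes (horizontal axis) in the naïve (grey), day 7 (red) and day 14 (blue) libraries, in CPM on a log scale; points are summed UMIs over the class, bars 95% Poisson intervals and open triangles the limit that 0 UMIs allow (3 counts). The class II genes and Ciita stand at the left, in macrophage-, dendritic- and B-like cells, while H2-K1, H2-D1 and B2m are found in all classes, with neuron-like cells at or near the lowest level.

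Class II transcripts of the ganglion came mostly from few cells. Of the kept cells 2.24%, 7.85% and 6.61% were macrophage-like (naïve, day 7 and day 14, the order used throughout), and they held 64.7%, 73.3% and 69.9% of the UMIs of Cd74, H2-Aa, H2-Ab1, H2-Eb1 and H2-DMa together, called the class II sum here. Dendritic-like cells held 13.7%, 3.46% and 18.6%. Cells in no class held 14.1%, 20.1% and 6.26%, and nearly all of that lay in 9, 10 and 8 cells in which at least 1% of UMIs were class II. Of those cells 5, 9 and 7 clustered with the dendritic-like cells, so the dendritic-like class as gated missed a part of the class II-rich cells. The order of the class II sum was the same at its top in each library, with dendritic-like cells at 53391, 45326 and 51825 CPM, macrophage-like cells at 43585, 21470 and 36916 CPM and B-like cells at 12294, 16606 and 9088 CPM, and none of these neighbours had overlapping intervals. Below them no class passed 148 CPM in any library.

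Ciita, the switch of the class II genes, was found in the same 3 classes, and their naïve intervals overlapped. It was at 297, 135 and 217 CPM in macrophage-like cells, 344, 417 and 624 CPM in dendritic-like cells and 346, 339 and 143 CPM in B-like cells. In the other 9 classes it reached at most 3.75 CPM, and it had 0 UMIs in SGC-like and myelinating Schwann-like cells of the naïve library. Across the 36 points made by 12 classes and 3 libraries, the log2 level of Ciita correlated with the mean log2 level of Cd74, H2-Aa, H2-Ab1 and H2-Eb1 at r = 0.96. Points that share a library and its depth are not independent, so this is a description. Outside the members, the 5 genes of 12670 with the most similar profile were Kmo (0.96), a kynurenine pathway enzyme, Pld4 (0.94), Cd180 (0.93), Slamf9 (0.91) and Ctss (0.91), the cathepsin that trims the invariant chain.

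In macrophage-like cells the class II genes were lowest in the day 7 library. Cd74 (chr18:60803848-60812652) was at 17325 CPM (16702 to 17965) in the naïve, 8500 (8318 to 8686) in the day 7 and 14778 (14545 to 15013) in the day 14 library. The intervals did not overlap, with day 7 lowest and day 14 between the others. The log2 ratio to the naïve library was -1.03 (-1.09 to -0.97) at day 7 and -0.23 (-0.29 to -0.17) at day 14. H2-Aa, the alpha chain of I-A, stood at 10846, 5157 and 8976 CPM, its beta chain H2-Ab1 at 7523, 3704 and 6483 CPM, and H2-Eb1 at 7203, 3622 and 6120 CPM. All 3 chains had the order of Cd74, with log2 ratios of -1.07 (-1.15 to -0.99), -1.02 (-1.12 to -0.93) and -0.99 (-1.09 to -0.90) at day 7. At day 14 the ratios were -0.27, -0.21 and -0.23. Both ratios share the naïve library, so they are not independent of each other.

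H2-DMa and Ciita had the same order on fewer UMIs. H2-DMa, the peptide-exchange chain, was at 688, 486 and 560 CPM, with log2 ratios of -0.50 (-0.80 to -0.20) at day 7 and -0.30 (-0.59 to 0.00) at day 14. Ciita at 297, 135 and 217 CPM gave -1.13 (-1.61 to -0.63) and -0.45 (-0.90 to 0.02). The day 14 interval of Ciita reached 0, so at this depth that difference was not detectable. Cd74, H2-Aa, H2-Ab1 and Ciita, 4 of the 10 members, were at least 2-fold lower at day 7, with H2-Eb1 just short of it, and the same fold was met by 4.30% of 6789 genes with at least 20 UMIs. The median log2 ratio of those genes was 0.06. At day 14 none of the members was 2-fold lower, against 4.71% of genes. Summed, the class II genes gave -1.02 (-1.06 to -0.98) at day 7, -0.24 (-0.28 to -0.20) at day 14 and 0.78 (0.76 to 0.81) for day 14 over day 7.

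The make-up of the class II sum hardly moved while its level did. In macrophage-like cells Cd74 made 39.7%, 39.6% and 40.0% of it, H2-Aa 24.9%, 24.0% and 24.3%, H2-Ab1 17.3%, 17.3% and 17.6%, and H2-Eb1 16.5%, 16.9% and 16.6%. H2-DMa had a larger share at day 7 (2.26%) than in the naïve (1.58%) and day 14 (1.52%) libraries. B-like cells had another make-up, with Cd74 at 70.3%, 64.6% and 60.9% of their class II sum.

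The lower mean at day 7 went with more cells in which under 1% of UMIs were of the class II sum. Cells without any class II UMI were 1, 7 and 2. The median macrophage-like cell spent 4.28%, 1.75% and 3.68% of its UMIs on the class II sum, and the highest single cell 11.1%, 7.83% and 8.39%. The upper quartile was 5.58%, 3.92% and 4.97%, so the upper part of the cells was lower at day 7 too. Cells under 1% were 9 of 70 (12.9%, 6.05 to 23) in the naïve, 80 of 208 (38.5%, 31.8 to 45.4) in the day 7 and 39 of 251 (15.5%, 11.3 to 20.6) in the day 14 library. The naïve and day 14 intervals overlapped, and the day 7 interval lay above both. Median depth was 2152, 4290.5 and 3600 UMIs, so the library with the most cells under 1% was the deepest of these. Cells with a UMI of Cd74 were 68 of 70 (97.1%), 185 of 208 (88.9%) and 247 of 251 (98.4%), and of H2-Aa 67 of 70 (95.7%), 163 of 208 (78.4%) and 239 of 251 (95.2%).

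**Figure D2:**
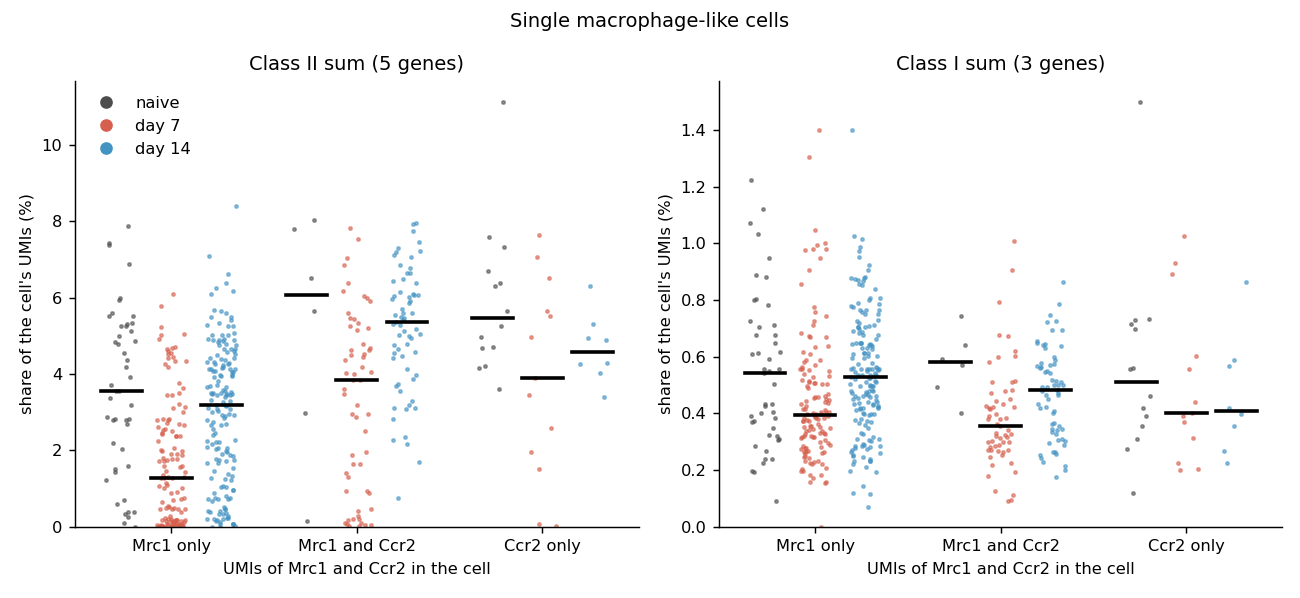
Share of each macrophage-like cell's UMIs that came from the class II sum (left) and from H2-K1, H2-D1 and B2m (right), in %, by the macrophage type (Mrc1 only, Mrc1 and Ccr2, Ccr2 only) and library; each point is a cell and each bar a median. At day 7 a dense row of Mrc1-only cells lies near 0 for class II (median 1.27% against 3.56% naïve and 3.18% at day 14), and no such row is seen for class I.

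Mrc1, the mannose receptor of resident tissue macrophages, and Ccr2, the chemokine receptor of monocyte-derived cells, split the macrophage-like cells. Cells with Mrc1 alone numbered 47, 135 and 171, cells with both 6, 59 and 65, and cells with Ccr2 alone 14, 13 and 8. Cells with both were a small part of the naïve macrophage-like cells and a larger one of the injured libraries, where cells were deeper (medians of 2152, 4290.5 and 3600 UMIs). The day 7 difference was larger in Mrc1-only cells than in cells with both receptors. Their class II sum was 37214, 14073 and 29474 CPM, and the log2 ratios to naïve were -1.40 at day 7 and -0.34 at day 14. In them Cd74 gave -1.40, H2-Aa -1.42, H2-Ab1 -1.38, H2-Eb1 -1.48, Ciita -1.21 (-1.92 to -0.45) and H2-DMa -0.83 at day 7. Of the genes measured in the Mrc1-only cells 4.75% were at least 2-fold lower at day 7, which the first 5 of these members were. Mrc1-only cells under 1% class II were 8 of 47 (17.0%), 62 of 135 (45.9%) and 35 of 171 (20.5%). In the cells with both receptors the class II sum was 49204, 32241 and 53419 CPM, with a day 7 ratio of -0.61.

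Within each library the Ccr2-only cells had more class II than the Mrc1-only cells. The Ccr2-only level was 65147, 39022 and 49250 CPM, and the log2 ratio to the Mrc1-only cells was 0.81 (0.73 to 0.89) in the naïve, 1.47 (1.40 to 1.54) in the day 7 and 0.74 (0.66 to 0.82) in the day 14 library. The ratio was widest at day 7, where the Mrc1-only cells were lowest. Markers of dendritic cells were also higher in the Ccr2-only cells of each library, at 835, 50.1 and 330 CPM (2, 3 and 2 of 7 detected). In Mrc1-only cells they were at 145, 25.2 and 23.8 CPM (2, 3 and 2 of 7), and Xcr1 and Ccr7 were at 0. This gap was smallest at day 7, where the class II ratio was widest. The 12 macrophage markers were lower in Ccr2-only cells (15939, 18693 and 17672 against 30028, 28178 and 28272 CPM), and the part of either in the result was not tested. H2-Eb1 gave 1.10, 1.86 and 1.18 and Ciita 1.27, 1.09 and 1.95, each at least 2-fold, as 6.35%, 7.60% and 10.5% of the genes measured in these comparisons were. Ciita rested on 15, 12 and 15 UMIs in the Ccr2-only cells. Cd74 gave 0.49, 1.22 and 0.54, H2-Aa 0.90, 1.56 and 0.73, H2-Ab1 1.13, 1.59 and 0.72 and H2-DMa 0.13, 1.04 and 0.95. Every class II member thus met the fold at day 7, and most of the others did not in the naïve and day 14 libraries. Class I differed less: the ratio of the class I sum (H2-K1, H2-D1 and B2m) was 0.07 (-0.18 to 0.32), 0.37 (0.20 to 0.53) and -0.20 (-0.45 to 0.04). Over single macrophage-like cells of at least 2000 UMIs (39, 170 and 200), the rank correlation of the class II share with Ccr2 was 0.48, 0.41 and 0.55, with Mrc1 -0.36, -0.39 and -0.37, with Ciita 0.38, 0.52 and 0.55, and with H2-K1 -0.01, 0.12 and 0.10. Cells of 1 library share its depth, and these correlations are descriptions.

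Markers of dendritic cells moved with class II in the macrophage-like cells. Of 7 dendritic markers 4, 5 and 5 were detected there, summed at 314, 38.3 and 102 CPM, with Xcr1 and Ccr7 at 0 in every library. Without the cells that had a UMI of any dendritic marker the class II ratio was as large, at -1.06 (-1.11 to -1.02) at day 7 and -0.25 (-0.30 to -0.21) at day 14. The 12 macrophage markers were all detected and stood at 27364, 26612 and 26456 CPM, so their sum differed little. Myelin markers in the same cells were at 297, 361 and 570 CPM and neutrophil markers at 107, 79.6 and 142 CPM, and their part in the result was not tested. A fraction of low class II cells that enter the class and less class II per cell cannot be told apart here.

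The rest of the class II pathway in macrophage-like cells was read from lists of 58 genes, of which 56 were in the matrices. A gene is given as lower or higher where it was at least 2-fold apart from naïve in the same direction in both injured libraries with intervals clear of 0, which held for 1.30% of all measured genes downwards and 0.898% upwards. No member met this. Of 5 measured class II chaperones 1 was lower, H2-Ob (47.5, 5.17 and 13.5 CPM), a chain of H2-O, which holds H2-DM back. These levels rest on few UMIs. Dendritic markers had the same order in these cells (314, 38.3 and 102 CPM), and their part in the H2-Ob level was not tested. H2-DMb1 was at 392, 248 and 389 CPM, lowest at day 7 as its partner H2-DMa was. The proteases of the route did not share the day 7 low: Ctss stood at 2385, 2372 and 2523 CPM and Lgmn at 1175, 1665 and 1591 CPM, and the median log2 ratio of 4 proteases was 0.30 at day 7 and 0.36 at day 14. Of 3 costimulatory genes none met the rule, and Cd86 was at 101, 94.1 and 134 CPM. The other regulators Rfx5, Rfxank and Rfxap had 55, 35 and 46 UMIs in all, too few to tell their levels apart.

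H2-K1, H2-D1 and B2m in macrophage-like cells had a smaller day 7 low than the class II sum. H2-K1 was at 1881, 1308 and 1837 CPM, with log2 ratios of -0.52 (-0.70 to -0.34) at day 7 and -0.03 (-0.21 to 0.14) at day 14. H2-D1 was at 1454, 949 and 1271 CPM and B2m at 2569, 1988 and 2091 CPM. Both were highest in the naïve library, with day 7 ratios of -0.61 and -0.37 and day 14 ratios of -0.19 and -0.30. Tap1, the peptide pump, was at 71.2, 76.5 and 91.3 CPM with overlapping intervals. Summed, H2-K1, H2-D1 and B2m gave -0.48 (-0.58 to -0.37) and -0.18 (-0.28 to -0.08), nearer to 0 than the class II sum at day 7. The wider list of 9 class I chain genes, which holds these members, did not share the smaller low. Of the 9, 5 were at least 2-fold lower at day 7, against 4.30% of all measured genes. Their median log2 ratio was -1.02 at day 7, as was that of 3 measured class II molecules (-1.02).

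Some minor class I genes and interferon genes met the rule of a 2-fold lower level at both times, which no member did. H2-T23, the gene of the Qa-1 molecule, was lower at both times (332, 154 and 94.2 CPM), as was H2-T22 (107, 48.6 and 43.3 CPM), so 2 of 9 class I chain genes were lower. Tapbpl (59.3, 22.7 and 18.3 CPM), a peptide editor, was lower too. Of 10 interferon response genes 2 met the rule, Isg15 (202, 72.4 and 18.3 CPM) and Irf7 (314 CPM naïve and 78.6 CPM at day 7), and the median ratio of all 10 was -0.89 at day 7 and -2.33 at day 14. The interferon genes were thus lowest at day 14, where the class II sum was near its naïve level. Macrophage-like cells with UMIs of at least 3 interferon genes had a class II sum of 44881 CPM in the naïve library against 41569 CPM in the others, 20186 against 22888 CPM at day 7 and 38488 against 36143 CPM at day 14, so the direction differed between libraries.

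H2-DMa was well above its level in other glia in 1 glial class, and so was its partner chain H2-DMb1. H2-DMb1 was at 65.9, 52.2 and 44.6 CPM in myelinating Schwann-like cells against 0.665, 1.16 and 1.84 CPM in SGC-like cells. In myelinating Schwann-like cells H2-DMa was at 68.5 CPM (60.6 to 77.1) in the naïve, 58.0 (51.3 to 65.3) in the day 7 and 50.5 (45.3 to 56.2) in the day 14 library. The naïve and day 14 intervals did not overlap, and the log2 ratios to naïve were -0.24 (-0.49 to 0.01) and -0.44 (-0.67 to -0.20). Cells with a UMI were 196 of 1361 (14.4%), 185 of 1139 (16.2%) and 237 of 1648 (14.4%), at median depths of 2495, 3583 and 3587 UMIs. In SGC-like cells, which were deeper (5853, 7799 and 7612.5 UMIs), the shares were 1.80%, 2.97% and 1.63% and the levels 2.66, 3.49 and 2.29 CPM, and mural-like cells had 0, 0 and 1.37 CPM. The Schwann-like share was thus above that of SGC-like cells although its cells were shallower. The class, the largest of all, held 54.8%, 29.2% and 26.0% of all H2-DMa UMIs, against 23.4%, 50.4% and 44.3% in macrophage-like cells.

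The rest of the class II set was low in these Schwann-like cells in the naïve and day 7 libraries. At day 14 the other genes of the sum together held more UMIs than H2-DMa, with H2-Aa at 21.1, H2-Ab1 at 14.8 and H2-Eb1 at 15.5 CPM. H2-DMa made 83.2%, 69.6% and 39.6% of their class II sum, Cd74 was at 5.79, 6.39 and 25.7 CPM, and Ciita had 0, 0 and 2 UMIs. Of the cells with H2-DMa, 10 of 196 (5.10%), 22 of 185 (11.9%) and 57 of 237 (24.1%) also had a UMI of another class II gene, while of those without it 2.49%, 7.34% and 15% did. Macrophage markers in the class were summed at 10.3, 35.2 and 47.1 CPM, with 11, 12 and 12 of 12 detected. They were highest at day 14, as Cd74 was and H2-DMa was not. Cells with H2-DMa more often had a UMI of any of the 12 markers (4.08%, 16.8% and 12.2%) than cells without it (1.12%, 7.97% and 9.07%), and the part of these transcripts in the result was not tested.

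H2-DMa was uneven among the Schwann-like cells. Unsupervised clusters were made without the 10 members, although H2-DMb1 was not left out. In the cluster led by Spp1, Lox and Mfap5 (294, 286 and 429 cells) H2-DMa was at 138, 118 and 103 CPM and found in 40.8%, 46.2% and 38.0% of cells. The partner chain H2-DMb1 was at 146, 114 and 95.6 CPM there and Cd74 at 6.37, 4.72 and 11.2 CPM. In a small cluster led by interferon genes H2-DMa was at 108, 106 and 70.7 CPM. H2-DMb1 was high in this small cluster too, and at day 7 (75.5 to 196 CPM) its level was above that of the cluster led by Spp1. In each library the intervals of both chains overlapped between these clusters, so their order is open. H2-DMa was at 38.6, 30.5 and 25.1 CPM in the largest cluster, and at 12.0, 2.76 and 9.70 CPM in the one led by Npr3 and Pou3f1. The last of these had the highest Cd74 level (14.0, 9.19 and 59.6 CPM), but few cells held it, with 86 UMIs in 24 cells at day 14. By share of cells Cd74 was most frequent in the cluster led by Spp1, Lox and Mfap5 (2.72%, 2.80% and 6.53% against 1.31%, 2.57% and 5.01%). These were 8 UMIs in 8 cells, 8 in 8 and 28 in 28. Cells of this cluster were deeper than those of the cluster led by Npr3 and Pou3f1, and shares move with depth. H2-DMb1 overlaps no other gene, and the part of the Brd2 overlap in the H2-DMa level was not tested.

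**Figure D3:**
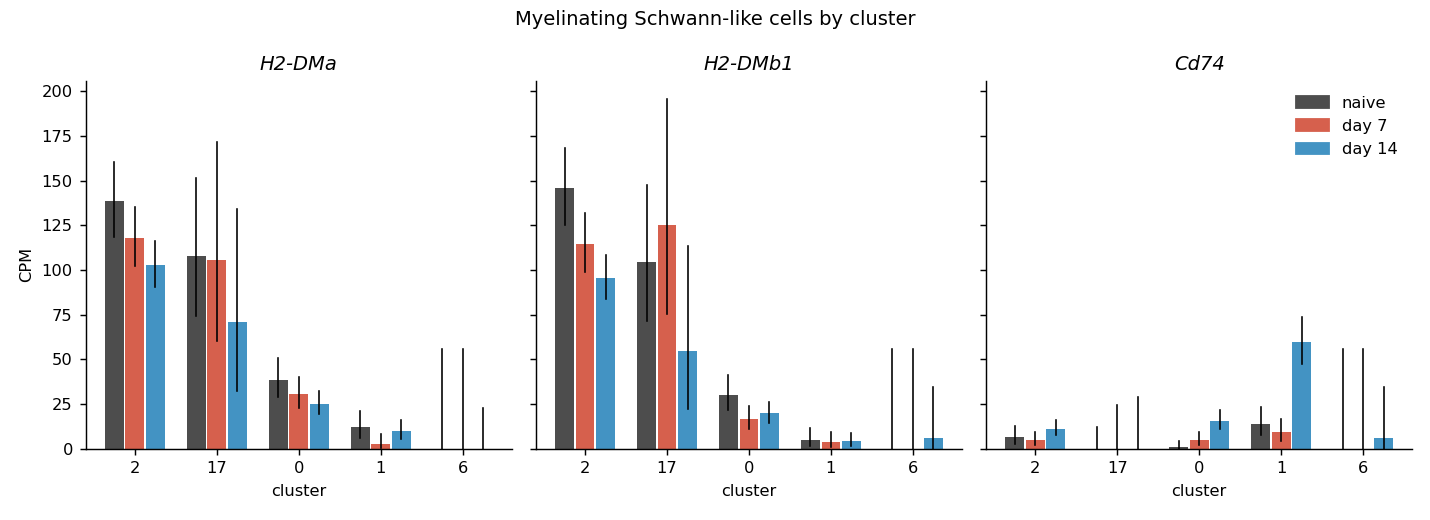
H2-DMa, its partner chain H2-DMb1 and Cd74 in CPM in 5 clusters of myelinating Schwann-like cells, in the naïve (grey), day 7 (red) and day 14 (blue) libraries; bars are summed UMIs and lines 95% Poisson intervals, and a line without a bar is a cluster with 0 UMIs. Cluster 2, led by Spp1, Lox and Mfap5, has the highest H2-DMa bar in each library and the highest H2-DMb1 bar except at day 7. Its naïve levels are 138 and 146 CPM, with Cd74 at 6.37 CPM. At day 7 the H2-DMb1 bar of cluster 17, led by interferon genes, is higher, with overlapping intervals. The highest Cd74 bar, of cluster 1 at day 14 (59.6 CPM), rests on 86 UMIs in 24 cells.

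In the glia, neurons and vessels the class II sum was low and mostly highest in the day 14 library. In SGC-like cells it was at 14.8, 27 and 135 CPM, and cells with a UMI of any of the 5 genes were 48 of 611 (7.86%), 76 of 370 (20.5%) and 152 of 492 (30.9%). After each cell was thinned to 2000 UMIs the shares were 2.24%, 4.86% and 9.82%, which kept the order. Mural-like cells, which should lack class II, had shares of 4.80%, 4.95% and 13.2% at median depths of 3346, 4069 and 3501 UMIs. The SGC-like shares were above these, but in cells about as deep again or deeper, and free RNA and expression cannot be told apart from such shares.

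Much of the SGC-like value at day 14 came from few cells that also had macrophage transcripts. The highest single cell had 14, 4 and 158 class II UMIs. Without the cells with a UMI of Csf1r, C1qa or Tyrobp (11, 25 and 42 cells) the sum was 11.9, 27.5 and 51.9 CPM, which is the same order at a lower day 14 level. The 12 macrophage markers in all SGC-like cells, summed at 10.2, 28.8 and 103 CPM, were at 10, 12 and 12 of 12 detected, with Aif1 and Fcgr1 at 0 in the naïve library, and their part in the result was not tested. The make-up of the class II sum at day 14 was near that of macrophage-like cells, with Cd74 at 38.1%, H2-Aa at 24.0%, H2-Ab1 at 18.7%, H2-Eb1 at 17.5% and H2-DMa at 1.70%. In the naïve library, with its 67 UMIs, it was not: Cd74 was 19.4% and H2-DMa 17.9%.

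In SGC-like cells Cd74, H2-Aa, H2-Ab1 and H2-Eb1 had the order of the sum, and H2-DMa (2.66, 3.49 and 2.29 CPM) did not. Cd74 was at 2.88, 4.07 and 51.4 CPM, with a day 7 log2 ratio of 0.50 (-0.70 to 1.71) and a day 14 ratio of 4.16 (3.35 to 5.09). H2-Eb1 was at 1.55, 5.23 and 23.6 CPM and was the member that met the rule upwards, which 0.406% of the genes measured in SGC-like cells did. It met the rule in myelinating Schwann-like cells too, at 1.26, 6.18 and 15.5 CPM (background 0.465%). In neuron-like cells Cd74, H2-Aa, H2-Ab1 and H2-Eb1 all met it (background 2.74%), from a class II sum of 11.4, 26.0 and 42.7 CPM. The 12 macrophage markers were all detected there in each library and summed to 6.46, 38.9 and 23.9 CPM, and 41.1%, 68.9% and 82.2% of the neuron-like cells with class II had one of them against 16%, 18.2% and 23.1% of the others. The part of these transcripts in the result was not tested. Ctss met the rule in this class as well (0.235 CPM naïve and 1.26 CPM at day 14). The neuron-like class itself had median depths of 55695, 2014 and 79214.5 UMIs, so it was mostly shallow cells at day 7. The neuron-like cells with a class II UMI were far deeper, at a median of 94509.5, 90081 and 107182 UMIs, and in the thinned cells their shares were 2.07%, 6.74% and 7.65%. H2-DMa made 34.0%, 21.6% and 16.2% of the neuron-like class II sum, unlike its share in macrophage-like cells, so the 5 genes did not keep 1 ratio across classes.

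The remaining classes varied in order. Non-myelinating Schwann-like cells had a class II sum of 18.7, 53.1 and 104 CPM, and macrophage markers moved with it there (24.0, 46.5 and 96.2 CPM). Without the cells with Csf1r, C1qa or Tyrobp it was 18.8, 55.6 and 82.7 CPM. Endothelial-like cells had a class II sum of 33.5, 30.4 and 72.0 CPM. Fibroblast-like cells had 148, 28.9 and 93.9 CPM, but 36 of the 39 naïve UMIs lay in 1 cell, and without cells with Csf1r, C1qa or Tyrobp the naïve value was 11.6 CPM and the day 14 value 58.0 CPM. Cd74 (72.0, 10.8 and 18.8 CPM) met the rule downwards in this class (background 0.905%), and most naïve class II UMIs lay in the 1 cell. Endothelial-like cells had their macrophage marker sum highest at day 7 (46.6, 136 and 49.1 CPM) and their class II sum highest at day 14. Most of those marker UMIs were of Lyz2 (73 of 82, 181 of 215 and 78 of 133). The day 7 peak of the marker sum is thus mostly that of 1 gene. T or NK-like cells had 1, 5 and 14 class II UMIs and neutrophil-like cells 1, 3 and 2.

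**Figure D4:**
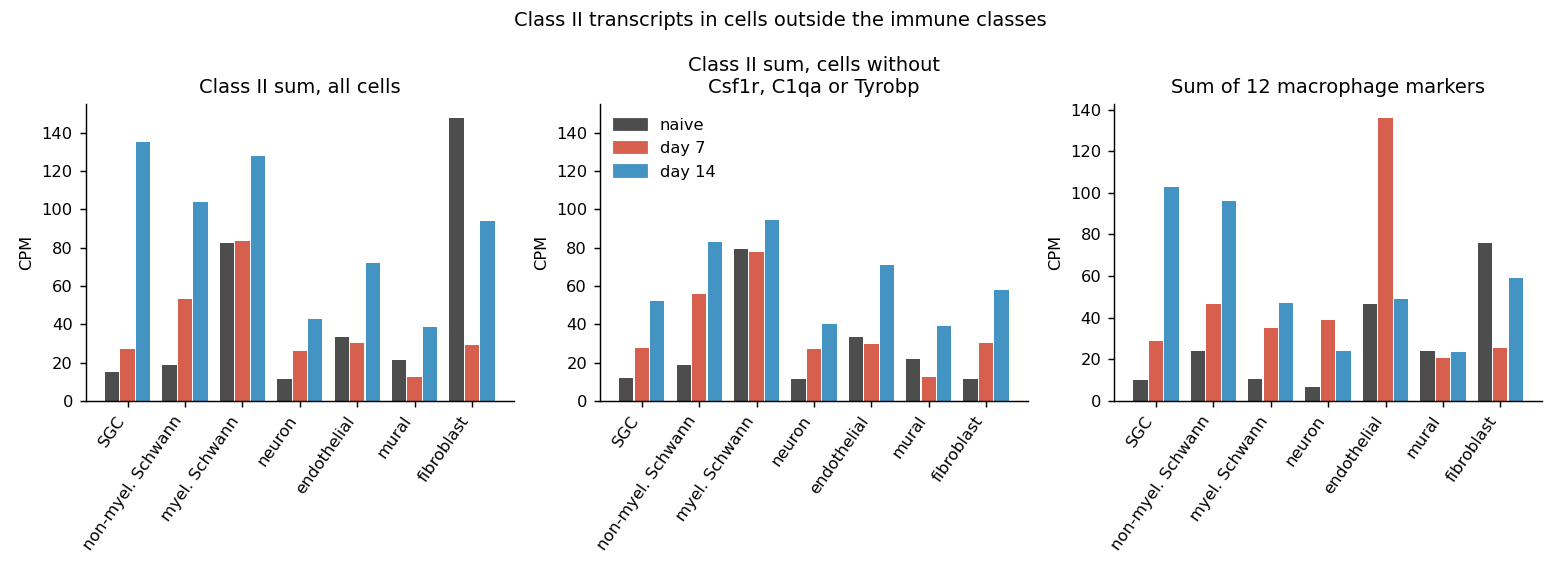
Class II sum in CPM outside the immune classes in all cells (left) and in cells without a UMI of Csf1r, C1qa or Tyrobp (middle), and the summed level of 12 macrophage markers in all cells (right), by library; bars are summed UMIs over the class. The SGC value at day 14 is 135 CPM in all cells and 51.9 CPM without the cells with macrophage transcripts, and the naïve fibroblast value goes from 148 to 11.6 CPM.

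Class I transcripts were spread over the whole ganglion. Endothelial-like cells, at 9.48%, 7.81% and 8.58% of the cells, held 31.7%, 24.5% and 22.3% of the UMIs of H2-K1, H2-D1 and B2m, and SGC-like cells held 26.4%, 18.3% and 18.5%. Macrophage-like cells held 3.65%, 16.9% and 11.7%. Myelinating Schwann-like cells were 43.6%, 43.0% and 43.4% of the cells and held 13.7%, 15.2% and 16.7%. The class I sum was highest in T or NK-like cells in each library (9166, 8014 and 8735 CPM), with no overlap with the next class, and lowest in neuron-like cells (296, 314 and 330 CPM). Between these ends stood endothelial-like cells at 4897, 3764 and 3798 CPM, non-myelinating Schwann-like cells at 3676, 2781 and 3060 CPM, SGC-like cells at 1592, 1295 and 1954 CPM and myelinating Schwann-like cells at 937, 787 and 1140 CPM. In the naïve library the intervals of neighbours among macrophage-, dendritic-, B- and endothelial-like cells overlapped, while macrophage-like cells (5903 CPM) lay above endothelial-like cells without overlap. The 5 genes whose profile over the 36 points was most like that of the class I sum were Psmb8 (0.93), Psmb9 (0.90) and Psme1 (0.87), all of the immunoproteasome or its activator, Casp8 (0.87) and Nfkb1 (0.87). The correlation of Tap1 with that profile was 0.72.

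The heavy chains and the light chain were not in 1 ratio across classes. H2-K1 UMIs per H2-D1 UMI were 1.55, 1.45 and 1.74 in endothelial-like cells, 1.47, 1.49 and 1.32 in SGC-like cells and 1.38, 2.11 and 2.17 in T or NK-like cells. Below 1 were myelinating Schwann-like cells (0.726, 0.734 and 0.617), neuron-like cells (0.534, 0.537 and 0.725) and neutrophil-like cells (0.176, 0.222 and 0.353, with a naïve interval of 0.0764 to 0.362). Neutrophil-like cells thus had H2-D1 at 1623, 1157 and 788 CPM beside H2-K1 at 286, 257 and 278 CPM. B2m UMIs per heavy chain UMI were 2.81, 2.94 and 2.27 in myelinating Schwann-like cells, above every other class in each library, against 1.33, 1.2 and 1.19 in SGC-like cells and 0.637, 0.541 and 0.505 in endothelial-like cells. The ratios between heavy chains rest on how reads of similar genes were split.

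**Figure D5:**
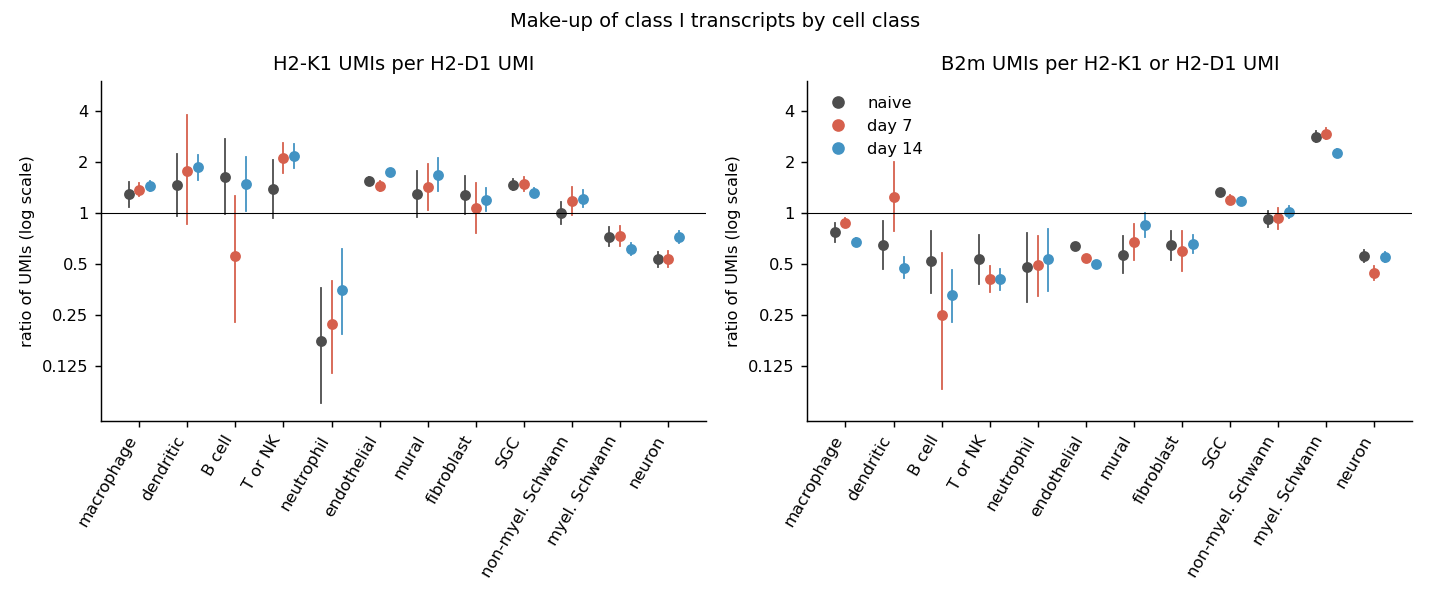
UMIs of H2-K1 per UMI of H2-D1 (left) and of B2m per UMI of either heavy chain (right) in 12 cell classes on a log scale, in the naïve (grey), day 7 (red) and day 14 (blue) libraries; points are ratios of summed UMIs and bars 95% intervals. Neutrophil-like cells are lowest on the left (0.176 naïve) and myelinating Schwann-like cells highest on the right (2.81 naïve).

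Between libraries the class I genes moved little in SGC-like, myelinating Schwann-like and endothelial-like cells. In SGC-like cells H2-K1 was at 407, 351 and 509 CPM, H2-D1 at 277, 237 and 385 CPM and B2m at 908, 707 and 1060 CPM. All 3 were lowest at day 7 and highest at day 14. Summed, the log2 ratio to naïve was -0.30 (-0.35 to -0.24) at day 7 and 0.30 (0.25 to 0.34) at day 14. Tap1 was at 26.4, 23.3 and 28.0 CPM with overlapping intervals. In myelinating Schwann-like cells H2-D1 was at 142, 115 and 215 CPM and H2-K1 at 103, 84.6 and 133 CPM, and the sum gave -0.25 (-0.32 to -0.19) and 0.28 (0.23 to 0.34), the order of the SGC-like cells. Endothelial-like cells differed, with H2-K1 at 1818, 1444 and 1602 CPM, B2m at 1905, 1321 and 1274 CPM and a sum at -0.38 (-0.43 to -0.33) and -0.37 (-0.41 to -0.33). Fibroblast-like cells moved more. Their class I sum was 1591 (1442 to 1750), 860 (754 to 977) and 1473 (1387 to 1562) CPM, with H2-K1 at 542, 278 and 486 CPM and B2m at 625, 322 and 583 CPM. No class I member was 2-fold apart from naïve in SGC-like or endothelial-like cells, where 0.937% and 1.66% of genes were at least 2-fold lower at day 7 and at day 14 2.27% were higher in SGC-like and 1.62% lower in endothelial-like cells by that fold. Which of these differences exceed the spread between animals could not be measured.

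Within each glial class, cells with interferon genes had a higher class I sum than the others of their library, though not every gene of it was higher. In the naïve library 153 of the SGC-like cells (25%) had UMIs of at least 3 of 10 interferon genes, and their class I sum was 2383 CPM against 1232 CPM in the other 458, a log2 ratio of 0.95. Tap1 was at 57.4 against 12.3 CPM. At day 7 the same split gave a smaller difference, 1434 against 1260 CPM, and at day 14 it gave 2503 against 1806 CPM (0.47). The day 7 log2 ratio was 0.27 for B2m, 0.15 (-0.06 to 0.35) for H2-K1 and 0.00 (-0.26 to 0.25) for H2-D1. The cells above the threshold were deeper, at a median of 7315 against 5404 UMIs in the naïve library and 9536 against 7292.5 at day 14. Non-myelinating Schwann-like cells with interferon genes had a class I sum of 5830, 3615 and 3614 CPM against 2662, 2566 and 2866 CPM in the others, which by themselves were above the SGC-like cells with interferon genes. At day 7 H2-K1 in this class gave -0.24 (-0.76 to 0.25) and Tap1 0.15 (-3.15 to 2.54). Among myelinating Schwann-like cells the split was sharper for Tap1: the 78 naïve cells with interferon genes (5.73%) had 137 CPM of Tap1 against 3.55 CPM in the other 1283, a log2 ratio of 5.27, and a class I sum of 2160 against 835 CPM. At day 7 and day 14 Tap1 was at 99.0 against 5.31 CPM and 124 against 7.89 CPM. In every library the Tap1 level of the few myelinating Schwann-like cells with interferon genes was far above that of the others of the class. Of the 10 interferon genes 5 were lower in both injured libraries in SGC-like cells, with medians of -1.28 and -1.61, and 8 were in myelinating Schwann-like cells, with medians of -1.75 and -2.09, where 0.262% and 0.313% of genes were. H2-T23 met the rule downwards in SGC-like cells (21.7, 10.2 and 6.65 CPM), as in non-myelinating Schwann-like (107, 9.96 and 23.7 CPM), fibroblast-like (121, 47.0 and 51.0 CPM) and mural-like cells (47.6, 14.4 and 8.25 CPM), and H2-T22 met it in non-myelinating Schwann-like cells (115, 53.1 and 51.2 CPM). The share of genes that did was 0.652% in non-myelinating Schwann-like, 0.905% in fibroblast-like and 0.339% in mural-like cells. At day 14 the class I sum and the interferon list had opposite directions in SGC-like and myelinating Schwann-like cells.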

How the data were processed

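Single-cell RNA-seq of pooled L3 and L4 DRGs was used, with 1 library for each of 3 conditions. The values were UMI counts per gene and cell, which the authors deposited as filtered matrices. The submitters' processing notes name Cell Ranger 3.0.2 and mm10. The annotation and the use of strand are not given in the sources used here, and no single-cell methods were found in the paper. Depth was 23107376, 22343246 and 36550911 UMIs in 3748, 3281 and 4908 barcodes (naïve, day 7 and day 14).

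Barcodes with 500 or more genes and no more than 20% of UMIs from mitochondrial genes were used. Doublets were predicted with Scrublet in scanpy 1.11.5 (expected rate 5%) and removed (0.931% of cells passing). A cell was put in the class with the highest marker score if it had UMIs of at least 3 of its markers and a score at least 1.25 times the second. Macrophage-like cells were split by UMIs of Mrc1 and Ccr2. Counts were summed per class and library, and CPM, Poisson, Clopper-Pearson and conditional binomial intervals (95%, scipy 1.17.1) were computed. Clusters used leidenalg 0.10.2 (resolution 1) without the members. Genes were measured from 20 UMIs over the libraries compared, profiles used log2(CPM + 1) and genes with at least 200 UMIs, and 0 UMIs were given a limit of 3 counts. Ratios and intervals were tested on simulated data. Named beyond the members were pathway genes at least 2-fold apart from naïve in the same direction in both injured libraries with intervals clear of 0, the 5 nearest profiles to each route, and, for their role or after their values were seen, H2-DMb1, Ctss, Lgmn, Cd86, the other regulators and the leading genes of clusters. Interferon genes other than Isg15 and Irf7 are given as counts, and a pathway gene that met this rule is not reported here. The members and lists were chosen, and the promoter letters trimmed, with earlier results of these data known. Positions come from GENCODE vM21, in which 31011 of 31053 identifiers were found. Other gates, filters, scalings and clusters were tried as alternatives.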

Additional observations from a re-analysis of the deposited data

Results flagged for a closer look

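The class I sum (H2-K1, H2-D1 and B2m) in SGC-like cells was lower than naïve at day 7 (log2 ratio -0.30) and higher at day 14 (0.30), which are opposite directions under the same contrast. At day 14 the endothelial-like cells (-0.37) also went opposite to the SGC-like cells. Each value rests on 1 library, and neither difference was tested.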

How the results depend on the processing

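No paired analysis was possible because every condition is a lone library. No ratio below changed direction under any alternative run. The alternatives with a gate ratio of 1.0 or 1.5, with Mrc1-only cells alone and without cells holding a dendritic marker were chosen after seeing the data. For class II in macrophage-like cells, day 7 (-1.02, 11 alternatives from -1.40 to -0.89) was -0.93 with a gate ratio of 1.0, -0.89 as the mean of single-cell CPM, -1.40 in Mrc1-only cells and -1.06 without cells holding a dendritic marker, and day 14 (-0.24, from -0.34 to -0.21) was -0.28 with the gate ratio of 1.0, -0.29 thinned, -0.34 in Mrc1-only cells and -0.32 by clusters. Ccr2-only over Mrc1-only was 0.72 by the mean and 0.94 thinned in the naïve library (0.81), 1.77 with the gate ratio of 1.0 and 1.28 by the mean at day 7 (1.47), and 0.95 under the strict filter, 0.63 without a filter, 0.65 by the mean and 0.63 thinned at day 14 (0.74). Class I in SGC-like cells was -0.10 by clusters, -0.82 under the strict filter and -0.37 thinned at day 7 (-0.30), and 1.34 under the strict filter, 0.25 by the mean, 0.23 thinned, 0.24 without a filter and 0.48 by clusters at day 14 (0.30). The strict filter left 13 and 5 SGC-like cells in the injured libraries and 2 Ccr2-only cells at day 14. Endothelial-like class I at day 7 (-0.38) was -0.44 by the mean. The cause was not tested. Shares of cells with a UMI stayed within their interval in 197 of 360 cases when thinned, in 221 of 340 under the strict filter, in 337 of 360 without a filter and in 348 of 360 by clusters. Depth limits what can be said of Ciita and Tap1 outside the classes that have them, and of dendritic-, B- and Ccr2-only cells.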
